A study of Mus musculus with 4 samples.

Results

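Dyneins are motor complexes that walk along microtubules, and their genes were followed here in round spermatids, haploid cells of the testis in which the sperm tail starts to form. The genes were taken by symbol from the deposited table: axonemal dynein heavy, intermediate and light chains, cytoplasmic dynein chains, light chains of both, dynactin subunits and 2 further genes named for the t-complex. They made up 47 of the 25965 listed genes, and 46 of them reached 1 RPM (reads scaled to a library total of 1000000) in 2 or more of the 4 libraries and were tested. By role there were 16 rows of axonemal heavy chains, 4 axonemal intermediate and light chains, 5 genes of cytoplasmic dynein 1, 3 of cytoplasmic dynein 2, 11 light chains, 6 dynactin subunits and the 2 others. No listed symbol began with Dnaaf, the name of the axonemal assembly factors, but 4 of these factors were found under other symbols and are described below.

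The cells were sorted from testis of ICR mice, an outbred stock, and the series sets Wfdc15a-/- cells (labelled knockout, 2 libraries) against Wfdc15a+/- cells (heterozygous, 2 libraries), so every animal carried at least 1 altered allele of Wfdc15a, a gene for a small protein with a WAP domain. The labels give neither the age of the mice, nor the altered part of the gene, nor the gate of the sort, nor whether the replicates are different animals. The spread behind each p-value is that between these libraries and may be technical. Wfdc15a itself was still read in each library, at 82.6 and 59.5 RPM in knockout-labelled cells and at 121 and 85.2 RPM in heterozygous cells (limma log2 difference -0.53, SE 0.29, adjusted p = 0.647). The genotype is therefore given as labelled. Library totals recovered from the steps of the values were 21160061 and 11268909 reads for knockout-labelled libraries 1 and 2 and 5774112 and 33853604 reads for heterozygous libraries 1 and 2. All 10 round spermatid markers had reads in each library, at 22.3 to 809 RPM. Of these, 4 lay above both heterozygous libraries in both knockout-labelled ones and 1 below, against 23.5% and 15.0% of all tested genes. Their median log2 difference was 0.20, against 0.068 over all tested genes. Their sums were 3649 and 3250 RPM in knockout-labelled cells against 2750 and 3332 RPM in heterozygous cells, which overlap. Among markers of other cells, 9 of 10 macrophage genes lay above both heterozygous libraries, against 23.5% of all tested genes. Their summed levels were 335 and 112 RPM in knockout-labelled cells against 37.2 and 38.3 RPM in heterozygous cells. All 5 transition protein and protamine genes lay below, against 15.0% of all tested genes, with sums of 1478 and 1124 RPM against 1998 and 3754 RPM. Summed markers were 35.5 and 15.7 RPM against 6.41 and 3.16 RPM for Leydig cells, 47.9 and 42.7 RPM against 17.7 and 34.0 RPM for Sertoli cells, 86.7 and 75.3 RPM against 57.3 and 50.7 RPM for spermatogonia and 617 and 820.4 RPM against 830.3 and 482 RPM for spermatocytes.

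Axonemal dyneins form the outer and inner arms of the sperm tail and of motile cilia, where their heavy chains, which hold the ATPase and the microtubule-binding stalk, slide neighbouring doublets. Cytoplasmic dynein 1 carries organelles and other cargo toward the minus ends of microtubules and needs the dynactin complex to do so, while cytoplasmic dynein 2 drives retrograde transport inside the growing cilium or flagellum. In the mammalian sperm tail the outer arm heavy chains are the products of Dnah8 and Dnah17, whereas those of airway cilia are encoded by Dnah5, Dnah9 and Dnah11. The table uses the older prefix Dnahc for these genes.

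Promoter sequences are shown for 6 genes: the outer arm heavy chain genes of airway type with the smallest p (Dnahc5 and Dnahc9), the pair of sperm type (Dnahc8 and Dnahc17), and the inner arm heavy chain gene Dnahc10 and the light chain gene Dynlrb2, which hold a match to a half-site of RFX factors, regulators of many genes of cilia. They are the 250 bases before the gene start in RefSeq, build GRCm38.p6, 5′ to 3′ on the strand of the gene. Dnahc5 is read from chr15:28203516-28203765 on the plus strand and Dnahc9 from chr11:66168552-66168801 on the minus strand. Dnahc8 is read from chr17:30626686-30626935 on the plus strand and Dnahc17 from chr11:118129220-118129469 on the minus strand. The start that RefSeq gives for Dnahc8 lies inside the span listed for that gene in the deposited table. Dnahc10 is read from chr5:124724835-124725084 and Dynlrb2 from chr8:116504765-116505014, both on the plus strand. Capitals mark GTTGCC (RFX half-site) or GTAAACA (forkhead) on either strand, so that GTAAACA on the other strand is printed as TGTTTAC.
Dnahc5: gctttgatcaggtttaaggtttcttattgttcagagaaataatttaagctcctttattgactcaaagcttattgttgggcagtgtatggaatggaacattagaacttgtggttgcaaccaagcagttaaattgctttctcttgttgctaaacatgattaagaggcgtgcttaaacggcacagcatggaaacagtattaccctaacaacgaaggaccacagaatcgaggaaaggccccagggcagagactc
Dnahc9: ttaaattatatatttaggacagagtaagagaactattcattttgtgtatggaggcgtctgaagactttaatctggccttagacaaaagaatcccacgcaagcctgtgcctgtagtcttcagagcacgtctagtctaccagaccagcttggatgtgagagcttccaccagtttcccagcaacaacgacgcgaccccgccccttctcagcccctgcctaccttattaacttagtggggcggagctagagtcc
Dnahc8: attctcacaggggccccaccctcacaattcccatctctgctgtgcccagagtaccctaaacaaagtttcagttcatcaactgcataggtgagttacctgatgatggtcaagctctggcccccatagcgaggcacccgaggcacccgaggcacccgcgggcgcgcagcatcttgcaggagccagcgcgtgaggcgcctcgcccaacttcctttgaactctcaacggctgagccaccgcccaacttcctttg
Dnahc17: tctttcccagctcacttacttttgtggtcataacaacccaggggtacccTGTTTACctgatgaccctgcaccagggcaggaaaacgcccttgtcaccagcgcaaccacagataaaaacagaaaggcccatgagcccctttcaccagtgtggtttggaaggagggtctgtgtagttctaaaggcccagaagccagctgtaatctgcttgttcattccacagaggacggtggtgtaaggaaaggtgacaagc
Dnahc10: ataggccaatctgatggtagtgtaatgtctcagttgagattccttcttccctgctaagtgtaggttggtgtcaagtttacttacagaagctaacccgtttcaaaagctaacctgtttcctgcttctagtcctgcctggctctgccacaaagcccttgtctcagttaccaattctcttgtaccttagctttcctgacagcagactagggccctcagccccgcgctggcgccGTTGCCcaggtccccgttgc
Dynlrb2: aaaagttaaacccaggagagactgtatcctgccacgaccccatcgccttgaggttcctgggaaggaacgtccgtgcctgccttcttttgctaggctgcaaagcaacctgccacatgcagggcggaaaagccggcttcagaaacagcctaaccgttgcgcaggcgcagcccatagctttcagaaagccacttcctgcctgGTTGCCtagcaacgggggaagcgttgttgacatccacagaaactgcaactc

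In the full windows of 300 bases, which add 50 bases after the start, GTTGCC stood 51 bases before the start of Dynlrb2. In the Dnahc10 window it stood 20 bases before the start and again 11 bases after it. Neither GTTGCC nor GTAAACA was found in the windows of Dnahc5, Dnahc9, Dnahc11 and Dnahc8. A RefSeq window was matched for 33 of the genes (36 windows, with none taken from chromosome 18). Counted by gene, so that overlapping windows of a gene count once, GTTGCC was present for 4 of 15 axonemal subunits (26.7%), for 4 of 6 cytoplasmic subunits (66.7%) and for 14.1% of all 27025 genes with a window. The cytoplasmic genes holding it were Dync1i1, Dync1i2, Dync2h1 and Tctex1d2. The start that RefSeq gives for Dync2h1 lies inside the span listed for that gene, and its only match stood 37 bases after that start. The full cyclic AMP response element TGACGTCA, searched because the factor CREM binds it in spermatids, was found for Dnahc6 and Dctn3, 2 of 33 genes (6.06%) against 2.03% of all genes, and its half-site TGACG, which each full site also contains, for 21.2% against 23.0%. GTAAACA was found for Dnahc17 and Dctn2, 6.06% against 4.05%. These are matches of letters and were not tied to binding.

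The heavy chain genes spanned a wide range of levels. Levels are compared between genes as RPM per kilobase of GENCODE M21 exon, averaged over the 4 libraries with the SD over them, for the 12 heavy chain rows that cover at least 80% of the exon bases of their gene. Dnahc3, an inner arm heavy chain gene, was the highest at 31.4 ± 3.01, and its range over the libraries did not overlap that of the next gene. Dnahc8, the sperm outer arm heavy chain, followed at 22.5 ± 2.68, then Dnahc6 at 19.8 ± 1.55, Dnahc7a at 17.6 ± 2.13 and Dnahc17 at 16.3 ± 0.403, each overlapping its neighbour in this order. Dnahc1 at 11.8 ± 1.15, Dnahc7b at 11.6 ± 1.95 and Dnahc10 at 8.85 ± 1.27 again overlapped in that order. Dnahc2 at 6.48 ± 0.618 stood clear of both neighbours. The heavy chains of airway type came last, Dnahc9 at 2.87 ± 1.013, Dnahc5 at 1.05 ± 0.459 and Dnahc11 at 0.519 ± 0.181, of which the final pair overlapped. Dnahc7a, Dnahc7b and Dnahc7c are near copies between which reads can be misassigned. The rows of Dnahc7c, Dnahc14, Dnahc12.1 and Dnahc12.2 hold only part of a gene and have no value per kilobase.

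**Figure D1:**
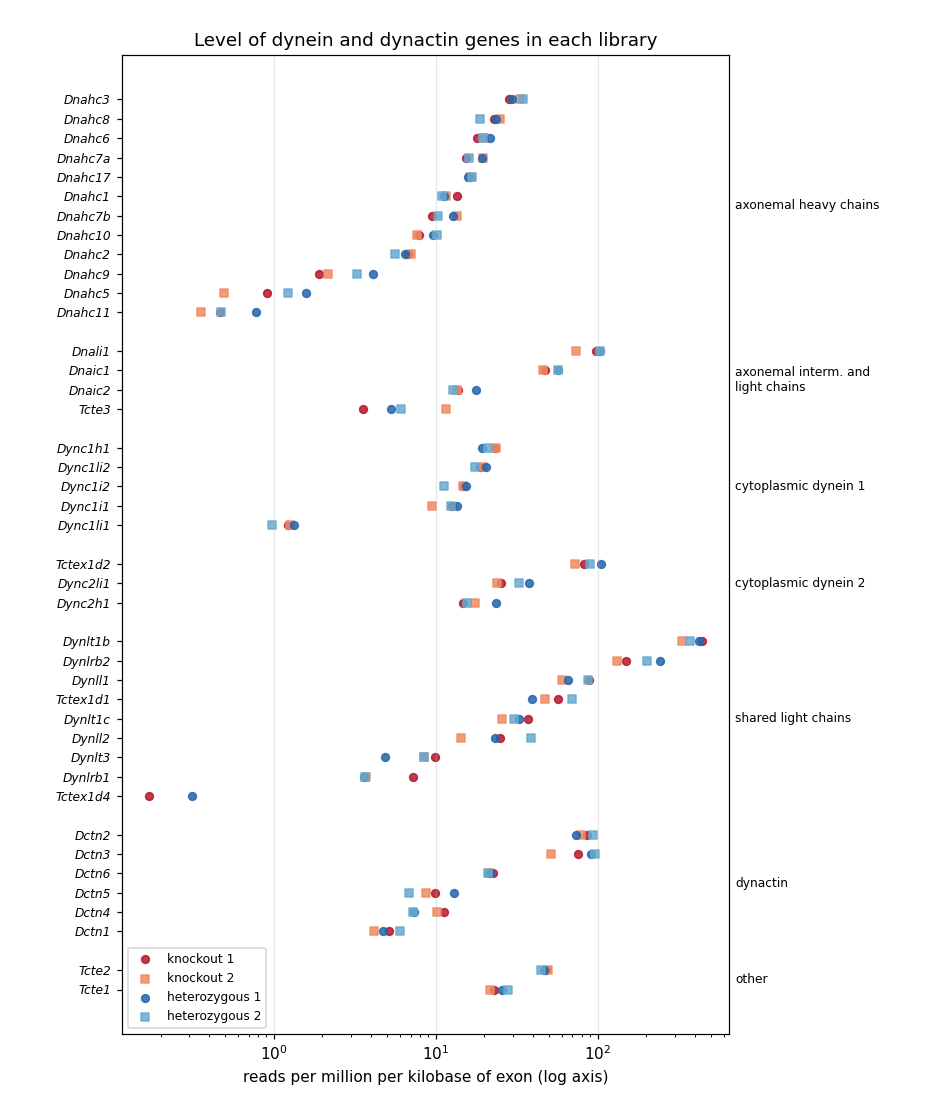
Level of each gene in RPM per kilobase of exon (log axis), with circles and squares for replicates 1 and 2 of the knockout-labelled (red) and heterozygous (blue) libraries, by role. Dynlt1b is highest at 392 on average and the heavy chains Dnahc9, Dnahc5 and Dnahc11 are the lowest of their class; 6 rows that cover under 80% of a gene's exons are not drawn, nor are the 2 libraries in which Tctex1d4 had 0 reads.

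No dynein or dynactin gene passed the comparison of knockout-labelled with heterozygous cells. With limma across all 15888 tested genes, 0 of the 46 passed an adjusted p of 0.05, and 0% of all tested genes did. An unadjusted p below 0.05 was reached by 4 genes, or 8.7%, close to the 8.08% of all tested genes. Of the 4, Dnahc5, Dnahc9 and Dynlrb2 were lower (3 genes, 6.52%, against 1.87% of all tested genes) and Dctn4 was higher (1 gene, 2.17%, against 6.21%). Both knockout-labelled libraries lay below both heterozygous libraries for 12 genes, or 26.1%, against 15.0% of all tested genes, and above both for 7 genes, or 15.2%, against 23.5%. With median-ratio scaling these counts were 15 and 3, against 19.0% and 20.1% of all tested genes. The median log2 difference was -0.027 over the 46 genes and 0.068 over all tested genes. The SE of a single gene was 0.25 at the median of the 46 and 0.41 over all tested genes.

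**Figure D2:**
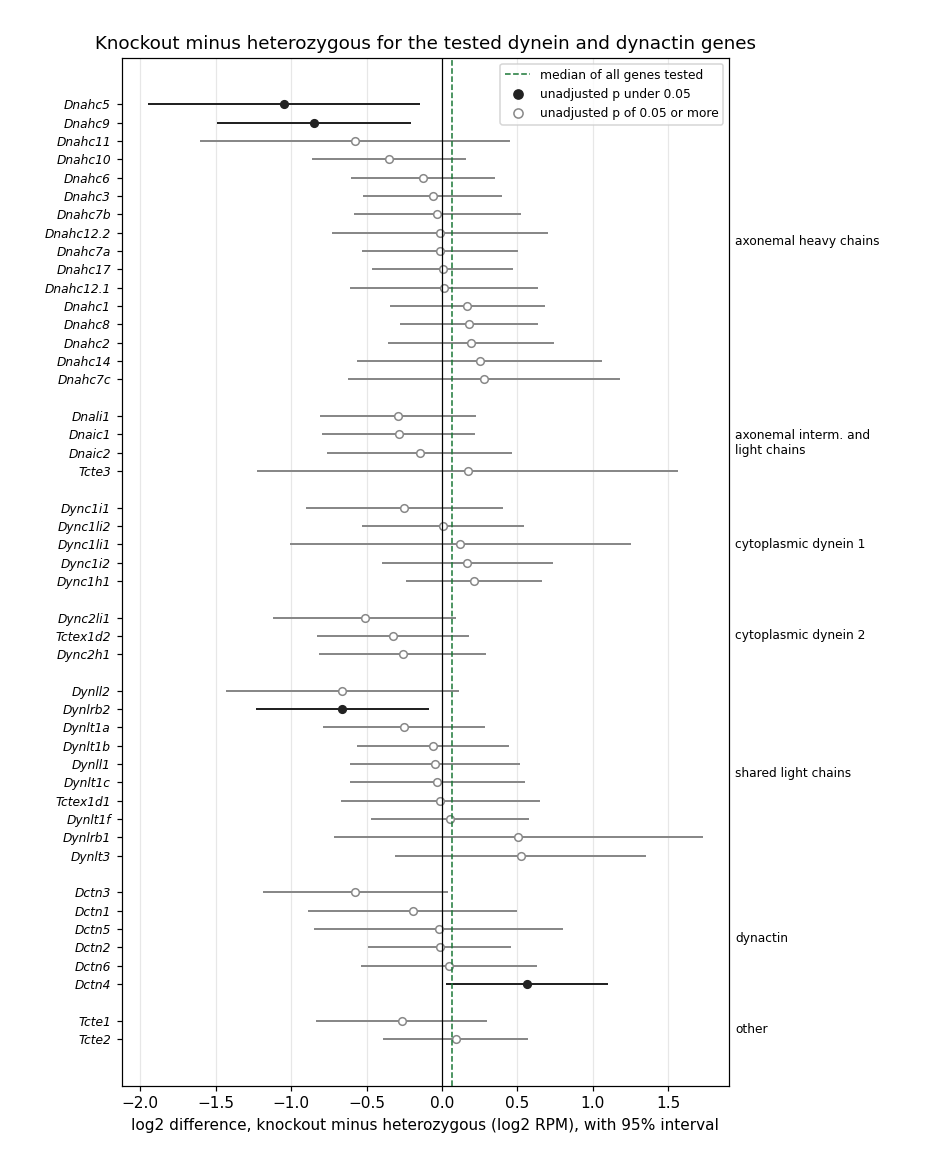
Log2 difference in RPM, knockout-labelled minus heterozygous, with its 95% limma interval for the 46 tested genes by role, filled where the unadjusted p is under 0.05. The intervals of Dnahc5, Dnahc9 and Dynlrb2 lie below 0 and that of Dctn4 above 0, and the dashed line is the median of all tested genes at 0.068.

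Among the outer arm heavy chains, the values of the airway genes lay below 0 as log2 differences and those of the sperm genes near 0, with no gene past the threshold. This grouping was chosen after the values were seen, and the difference between the groups of genes was not tested. Dnahc9 (chromosome 11, 65831282 to 66168551, minus strand) had 30.4 and 34.7 RPM in knockout-labelled cells against 65.3 and 52.4 RPM in heterozygous cells. Dnahc5 (chromosome 15, 28203752 to 28472045, plus strand) had 14.2 and 7.72 RPM against 24.6 and 19.1 RPM. Dnahc11 (chromosome 12, 117877982 to 118199043, minus strand) had 6.76 and 5.15 RPM against 11.3 and 6.85 RPM, from 58 to 232 reads per library. For each of these genes the groups did not overlap. Dnahc9 and Dnahc11 each share positions with a listed gene on the opposite strand (Gm12296 and Cdca7l), so reads may be shared. The log2 difference was -0.85 for Dnahc9 (SE 0.29, 95% interval -1.49 to -0.21, limma adjusted p = 0.55), -1.05 for Dnahc5 (SE 0.40, interval -1.94 to -0.15, limma adjusted p = 0.585) and -0.57 for Dnahc11 (SE 0.46, interval -1.60 to 0.45, limma adjusted p = 0.782). It was -0.61 for Dnahc5 without knockout-labelled library 2 and -0.22 for Dnahc11 without heterozygous library 1.

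Dnahc8 (chromosome 17, 30624354 to 30875264, plus strand) had 564 and 616 RPM in knockout-labelled cells against 586 and 463 RPM in heterozygous cells, which overlap (log2 difference 0.18, SE 0.20, limma adjusted p = 0.862, and 0.010 without heterozygous library 2). Dnahc17 (chromosome 11, 118021723 to 118129219, minus strand) had 262.0 and 261.6 RPM against 253 and 269 RPM, a difference of 0.0033 with an interval of -0.46 to 0.46. The sum of Dnahc5, Dnahc9 and Dnahc11 was 6.22% and 5.42% of that of Dnahc8 and Dnahc17 in knockout-labelled libraries and 12.1% and 10.7% in heterozygous libraries. Dnahc5, Dnahc9 and Dnahc11 are also genes of ciliated epithelium, which lines the efferent ducts next to the testis. Of 8 markers fixed for that epithelium, 5 were tested. Of these, 2 were higher and 2 lower in both knockout-labelled libraries than in either heterozygous one, against 23.5% and 15.0% of all tested genes. Ccno, among the lower, had only 0.520 and 2.04 RPM against 2.42 and 2.16 RPM. The sums of the 8 markers were 526 and 522 RPM against 489.6 and 539 RPM, most of it from Ccdc67 (now Deup1), at 389.5 to 440.5 RPM. Which cells these reads came from was not tested. Foxj1, the master regulator of motile cilia, had 50.7 and 52.0 RPM against 57.8 and 67.4 RPM, and the duct factor gene Pax8 and the multiciliation gene Mcidas (listed as Gm6320) had 0 reads in 3 libraries and 0.189 RPM each in knockout-labelled library 1. The 3 heavy chains were lower in the libraries where protamine genes were lower and macrophage genes higher, and the part of these in the result was not tested. In pooled cells, fewer cells of a type and less RNA per cell cannot be told apart.

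**Figure D3:**
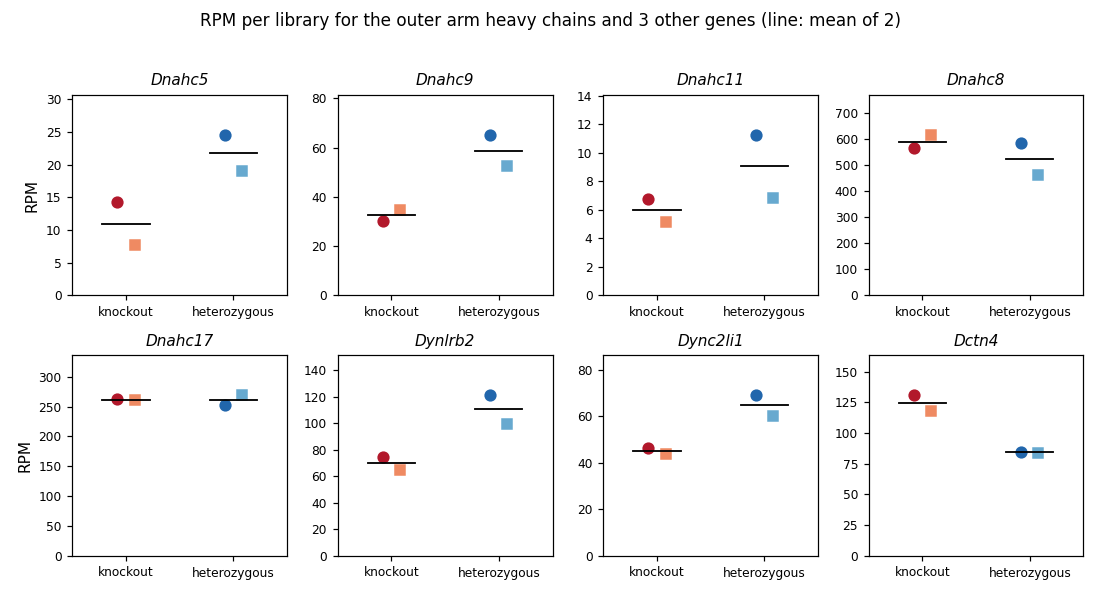
RPM in each library (circle, replicate 1; square, replicate 2; line, mean of 2) for the 5 outer arm heavy chain genes and for Dynlrb2, Dync2li1 and Dctn4, each on its own axis from 0. Groups do not overlap for Dnahc5, Dnahc9, Dnahc11, Dynlrb2 and Dync2li1, all lower in knockout-labelled cells, nor for Dctn4, which is higher, while Dnahc8 and Dnahc17 overlap.

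The other heavy chains, most of them of inner arms, lay closer to 0. Over these 11 rows the median log2 difference was -0.010, with a range of -0.35 to 0.28, and 0 had an unadjusted p under 0.05. Dnahc10, a heavy chain of the only inner arm with a pair of motor heads, was lowest, at 127 and 123 RPM in knockout-labelled cells against 155 and 164 RPM in heterozygous cells (log2 difference -0.35, SE 0.23, limma adjusted p = 0.713). Dnahc2, which encodes the partner of Dnahc10 in that arm, had 101 and 105 RPM against 97.5 and 83.9 RPM, so that both knockout-labelled libraries lay above both heterozygous ones. Dnahc1, whose loss in humans leaves sperm tails malformed, was likewise above, at 176 and 150.2 RPM against 147 and 142 RPM. Dnahc3 had 399.8 and 470.0 RPM against 418 and 490.3 RPM (log2 difference -0.063, SE 0.21, limma adjusted p = 0.962). The near copies Dnahc7a and Dnahc7b were both highest in knockout-labelled library 2 and heterozygous library 1, at 251 and 245 RPM for Dnahc7a and 269.9 and 257 RPM for Dnahc7b.

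The intermediate and light chains of the axonemal arms had a median log2 difference of -0.22, below 0 for 3 of 4 genes, and none had an unadjusted p under 0.05. Dnaic1, an outer arm intermediate chain, had 132 and 127 RPM in knockout-labelled cells against 158.3 and 158.4 RPM in heterozygous cells (log2 difference -0.29, SE 0.23, limma adjusted p = 0.773). Dnali1, a light intermediate chain of the inner arms, had 208 and 157 RPM against 222 and 220.3 RPM (log2 difference -0.29, SE 0.23, limma adjusted p = 0.777). The groups did not overlap for either gene, and the difference of Dnali1 was -0.090 without knockout-labelled library 2. Dnaic2, the partner of Dnaic1, had 62.6 and 61.5 RPM against 80.7 and 58.7 RPM (log2 difference -0.15, SE 0.28, limma adjusted p = 0.923). Tcte3, a Tctex2-type light chain with near copies beside it on chromosome 17, had 2.55 and 8.25 RPM against 3.81 and 4.37 RPM. The axonemal light chains Dnal1 and Dnal4 are listed as Dnalc1 and Dnalc4 and were therefore outside the symbols selected. Dnalc1 had 31.0 and 43.7 RPM in knockout-labelled cells against 70.5 and 44.5 RPM in heterozygous cells (log2 difference -0.61, SE 0.33, limma adjusted p = 0.649). Dnalc4 had 82.8 and 67.1 RPM against 96.1 and 104 RPM (log2 difference -0.42, SE 0.26, limma adjusted p = 0.686). Neither overlapped between groups. Their differences were -0.27 for Dnalc1 without heterozygous library 1 and -0.27 for Dnalc4 without knockout-labelled library 2. With both added, the median of the axonemal subunits was -0.047. The axonemal intermediate chain genes Wdr63 and Wdr78 were also outside the symbols selected, and both overlapped between groups. Wdr63 had 198 and 168 RPM in knockout-labelled cells against 267 and 191 RPM (log2 difference -0.31, SE 0.24, limma adjusted p = 0.777). Wdr78 had 116 and 161 RPM against 206 and 134 RPM (log2 difference -0.29, SE 0.28, limma adjusted p = 0.831).

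No gene of cytoplasmic dynein 1 or 2 had an unadjusted p under 0.05. Dync1h1, the heavy chain of dynein 1, had 364 and 368 RPM in knockout-labelled cells against 304 and 329 RPM in heterozygous cells, with no overlap (log2 difference 0.21, SE 0.20, limma adjusted p = 0.823). Its intermediate chains differed in sign. Dync1i2 had 122 RPM in both knockout-labelled libraries against 127 and 92.7 RPM (log2 difference 0.17, SE 0.25, limma adjusted p = 0.904), and Dync1i1 had 45.0 and 34.1 RPM against 48.7 and 44.6 RPM (log2 difference -0.25, SE 0.29, limma adjusted p = 0.868). Of the light intermediate chains, Dync1li2 had 113 and 117 RPM against 124 and 106 RPM, and Dync1li1, at 30 to 127 reads per library, had 4.73 and 4.88 RPM against 5.20 and 3.75 RPM. The difference of Dync1i1 was -0.051 without knockout-labelled library 2, and the median of the 5 genes was 0.12.

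For dynein 2, the light intermediate chain gene Dync2li1 had 46.6 and 43.8 RPM in knockout-labelled cells against 69.1 and 60.2 RPM in heterozygous cells (log2 difference -0.51, SE 0.27, interval -1.11 to 0.084, limma adjusted p = 0.641). Tctex1d2, a light chain of the same motor, had 197 and 172 RPM against 249.9 and 213 RPM (log2 difference -0.32, SE 0.22, limma adjusted p = 0.732). Neither gene overlapped between groups. The heavy chain gene Dync2h1 had 239.9 and 286 RPM against 386 and 255 RPM, which overlap (log2 difference -0.26, SE 0.25, limma adjusted p = 0.824). Without heterozygous library 1 the difference was 0.039 for Dync2h1 and -0.21 for Tctex1d2. The median of the 3 genes was -0.32. The dynein 2 intermediate chains, listed as Wdr34 and Wdr60 and outside the symbols selected, had 40.8 and 41.7 RPM against 49.4 and 35.2 RPM for Wdr34, and 104 and 121 RPM against 159 and 131 RPM for Wdr60, of which only Wdr60 did not overlap.

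Axonemal and cytoplasmic subunits did not stand apart in a stable direction, since the sign of their contrast turned with how it was summarised. The median log2 difference was -0.023 over the 20 axonemal subunits and -0.12 over the 8 cytoplasmic subunits, so that the axonemal median was higher by 0.098. Without the 4 heavy chain rows that hold part of a gene the axonemal median was -0.094. Taken instead within each library, the median log2 RPM of axonemal genes exceeded that of cytoplasmic genes by 0.15 and 0.065 in knockout-labelled libraries and by 0.27 and 0.29 in heterozygous libraries, which gives a difference of the opposite sign, -0.18. The sum of axonemal RPM was 2.57 and 2.74 times the cytoplasmic sum in knockout-labelled libraries and 2.49 and 2.69 times in heterozygous libraries, and these ranges overlap. Axonemal genes took 0.291% and 0.314% of reads in knockout-labelled libraries against 0.327% and 0.298% in heterozygous libraries, and cytoplasmic genes 0.113% and 0.115% against 0.131% and 0.1104%. Per kilobase, over 16 axonemal and 8 cytoplasmic genes with a length, the median level was 13.1 and 18.5 RPM.

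**Figure D4:**
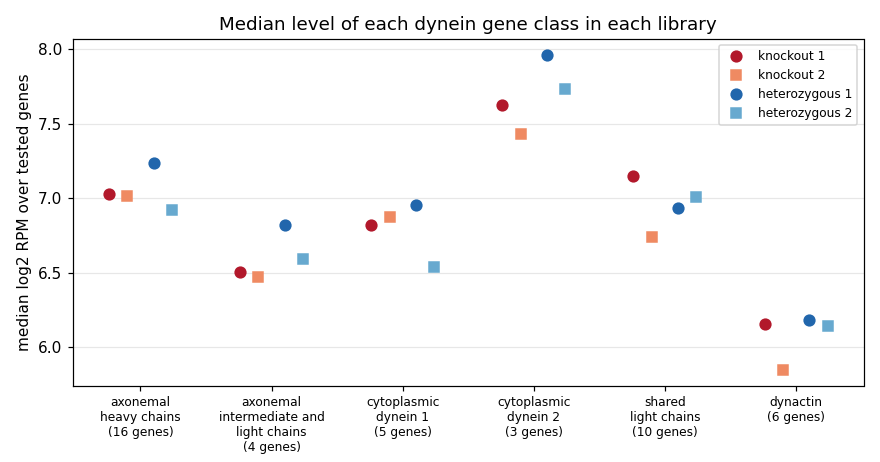
Median log2 RPM over the tested genes of 6 role classes, the t-complex genes left out, with 1 point per library (red, knockout-labelled; blue, heterozygous; circle and square, replicates 1 and 2). The knockout-labelled points lie below both heterozygous points for cytoplasmic dynein 2 and for the axonemal intermediate and light chains, and the groups overlap in the other 4 classes drawn; for the t-complex genes the medians were 6.93 and 6.91 against 6.99 and 7.02, also without overlap.

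The light chains that several dyneins share showed both directions. Dynlrb2, a roadblock-type light chain gene, had 74.5 and 65.0 RPM in knockout-labelled cells against 121 and 99.8 RPM in heterozygous cells, with no overlap (log2 difference -0.66, SE 0.26, interval -1.22 to -0.096, limma adjusted p = 0.586). Dynll2, an LC8-type light chain gene, had 68.0 and 39.5 RPM against 63.2 and 106 RPM, which overlap (log2 difference -0.66, SE 0.35, limma adjusted p = 0.641, and -0.27 to -1.05 with a library left out, the smallest without knockout-labelled library 2). Its paralogue Dynll1 had 347 and 236 RPM against 256 and 341 RPM (log2 difference -0.047, SE 0.25, limma adjusted p = 0.980). Dynlt3, a Tctex1-type light chain gene on the X chromosome, had 25.7 and 21.92 RPM against 12.5 and 21.89 RPM (log2 difference 0.52, SE 0.37, limma adjusted p = 0.742). Its difference was 0.12 without heterozygous library 1. Dynlt1b, the highest of all the genes per kilobase at 392 RPM, had 338 and 254 RPM against 325 and 287 RPM (log2 difference -0.061, SE 0.23, limma adjusted p = 0.968). Dynlt1a, Dynlt1b, Dynlt1c and Dynlt1f are near-identical copies on chromosome 17, so the split of reads between them is uncertain. Tctex1d1 had 146 and 123 RPM against 101 and 179.7 RPM, and Tctex1d4 had 4 and 0 reads against 2 and 0 reads, under or near the floor of 3 reads, and was not tested.

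Dynactin subunits lay on both sides of 0. Dctn4, the p62 subunit of the pointed end (chromosome 18, 60526221 to 60558762, plus strand), had 131 and 118 RPM in knockout-labelled cells against 84.9 and 83.5 RPM in heterozygous cells, with no overlap (log2 difference 0.56, SE 0.24, interval 0.031 to 1.09, limma adjusted p = 0.596). Dctn3, the p24 subunit of the shoulder, had 78.9 and 54.1 RPM against 94.9 and 99.8 RPM, also with no overlap (log2 difference -0.57, SE 0.28, limma adjusted p = 0.628, and -0.30 without knockout-labelled library 2). Dctn2, the shoulder subunit dynamitin, had 409.8 and 379 RPM against 353 and 449.6 RPM (log2 difference -0.016, SE 0.21, limma adjusted p = 0.991). Dctn1, the large subunit that contacts dynein and microtubules, had 33.7 and 27.2 RPM against 30.7 and 39.1 RPM (log2 difference -0.19, SE 0.31, limma adjusted p = 0.907, and -0.019 without heterozygous library 2). Dctn5 and Dctn6, also subunits of the pointed end, overlapped between groups, with differences of -0.022 and 0.044. Of the t-complex genes, Tcte1, a subunit of the nexin-dynein regulatory complex, had 70.9 and 66.5 RPM against 79.5 and 85.9 RPM (log2 difference -0.27, SE 0.25, limma adjusted p = 0.823), and Tcte2 had 210.1 and 218 RPM against 204 and 197 RPM (log2 difference 0.093, SE 0.21, limma adjusted p = 0.942). Tcte2 spans 7 other listed genes, 3 of them on its own strand, and its reads may be shared with them.

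Partners of the motors, and some further subunits of them, were read from 3 further lists. The first held outer arm docking, nexin link and radial spoke genes and other axonemal genes, among them Wdr63, Wdr78 and the central pair gene Hydin. Of its 33 tested genes, 0 had an unadjusted p under 0.05, against 8.08% of all tested genes. In this list 10 had both knockout-labelled libraries below both heterozygous ones, 2 had them above, and the median log2 difference was -0.12. The smallest p in that list belonged to Cfap61 (listed as 4930529M08Rik), a radial spoke gene, at 342 and 369.8 RPM in knockout-labelled cells against 474 and 457 RPM in heterozygous cells, with a log2 difference of -0.39 (SE 0.20, limma adjusted p = 0.633). The radial spoke gene Nme5 had 235 and 203 RPM against 289 and 277 RPM (log2 difference -0.38, SE 0.21, limma adjusted p = 0.667), and the nexin link gene Fbxl13 had 609.7 and 619 RPM against 482 and 499.7 RPM (log2 difference 0.32, SE 0.19, limma adjusted p = 0.676). Among all tested genes 15.0% lay below and 23.5% above, with a median of 0.068. The second list held genes for the assembly of axonemal dyneins in the cytoplasm and some others, among them Tbccd1, Lrrc56 and Daw1 (listed as Wdr69). Of its 19 genes, 0 had an unadjusted p under 0.05. In this list 3 lay above, Tbccd1 among them, and 4 below, Lrrc56 and Daw1 among them. The median was -0.069. These values are to be read against the same shares and median of all tested genes. Heatr2, now Dnaaf5, had the smallest p there, at 19.6 and 23.9 RPM against 38.4 and 31.6 RPM (log2 difference -0.69, SE 0.32, limma adjusted p = 0.616). Cfap300 (listed as 9230110C19Rik) had 58.9 and 66.7 RPM against 51.6 and 44.9 RPM (log2 difference 0.38, SE 0.27, limma adjusted p = 0.741), and the ATPase gene Ruvbl1 had 38.2 and 28.3 RPM against 50.1 and 39.05 RPM (log2 difference -0.43, SE 0.31, limma adjusted p = 0.748). The difference of Ruvbl1 was -0.21 without knockout-labelled library 2. The genes now named Dnaaf1, Dnaaf2 and Dnaaf3 were not among the 19 genes counted. Lrrc50, now Dnaaf1, was abundant, at 997 and 874 RPM against 923 and 1052 RPM. Dnaaf3 (listed as 6030429G01Rik) had 76.0 and 72.6 RPM against 57.3 and 82.7 RPM, and Dnaaf2 (listed as 1110034A24Rik) had 33.9 and 33.8 RPM against 36.7 and 40.0 RPM.

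The last list held regulators and adaptors of cytoplasmic dynein. It also held the dynein 2 intermediate chains Wdr34 and Wdr60 and genes of further dynactin subunits, such as Actr1a, Actr1b, Actr10 and Capzb. Of its 34 tested genes, 0 passed. At an unadjusted p under 0.05, 3 were higher and 0 lower, against 6.21% higher and 1.87% lower of all tested genes. In this list 11 had both knockout-labelled libraries above both heterozygous ones, and 3 had them below (Wdr60, Actr1a and Mapre2). The median log2 difference of the list was 0.13. Among all tested genes 23.5% lay above and 15.0% below, with a median of 0.068. Mapre1, the gene of the microtubule plus-end protein EB1, had 24.01 and 29.8 RPM in knockout-labelled cells against 10.05 and 12.8 RPM in heterozygous cells (log2 difference 1.24, SE 0.35, limma adjusted p = 0.455). It passed in 1 alternative, without heterozygous library 2 (limma adjusted p = 0.0427). Ndel1, whose product activates dynein together with LIS1, had 143 and 131 RPM against 82.3 and 98.7 RPM, and Rab11fip3, an adaptor of recycling endosomes, had 14.8 and 21.3 RPM against 7.97 and 11.3 RPM, with log2 differences of 0.60 (SE 0.24, limma adjusted p = 0.591) and 0.91 (SE 0.39, limma adjusted p = 0.602). Pafah1b1, the gene of LIS1, chosen after its values were seen, had 177 and 238 RPM against 245 and 203 RPM.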

How the data were processed

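Round spermatids sorted from mouse testis were lysed and amplified with Smart-seq2 over 15 cycles of PCR and tagmented with Nextera XT, per the labels' protocols. Per the submitters' processing notes, HISAT2 2.1.0, Trim Galore 0.6.6 and FastQC 0.11.8 were used with mm10. The read counter was not given in the sources used here. Such libraries keep neither strand nor molecular identifiers. The authors deposited log2 RPM values with no adjustment for gene length. Within a library these step by whole reads above a lowest value of 0.9 reads, and 99.7% to 100.0% of the other values came out whole within 0.01 of a read. Depth was 5774112 to 33853604 reads, and a floor of 3 reads was 0.0886 to 0.52 RPM per library, for counting error only.

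The deposited log2 values of genes reaching 1 RPM in 2 or more libraries went into limma (version 3.58.1, run under R 4.3.3), with a variance trend and Benjamini-Hochberg adjustment over all tested genes. The smallest exact permutation p for 2 against 2 libraries is 0.333, so none is given. Exon lengths came from GENCODE M21, on the same assembly as mm10, and 47 of 47 genes matched it. Of these, 18 overlap another listed gene, 2 of them on the same strand and 16 on the opposite strand only. As the libraries keep no strand, reads may be shared in either case. The 16 include Dnahc9, Dnahc11, Dnahc17, Dnaic1, Dnali1, Dync1h1 and Dctn3. In each class the 2 genes of highest RPM and the 3 of smallest p are given in full, and in each further list the 3 of smallest p. Of the 154 symbols in the lists, 2 did not match. The genes and lists were chosen with earlier results of these data known. The code was tested on simulated data. Plots used matplotlib 3.10.9.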

Additional observations from a re-analysis of the deposited data

How the results depend on the processing

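The count of 0 passing genes held in all 13 other settings tried: 2 other scalings, log2(RPM + 1), no filter, a 5 RPM filter, no variance trend, array weights, voom on recovered reads, each library left out and a replicate block. The number at an unadjusted p under 0.05 was 1 without a variance trend, 2 with the replicate block and 1 to 6 with a library left out (2 without knockout-labelled library 1, 1 without 2), against 4. Replicate numbers share only a number: the correlation of their deviations was -0.076, and across all genes the block gave 66 passing genes against 0. Leaving out heterozygous library 1 or 2 gave 559 and 640 passing genes and no filter 180, with 0 of the 46 among them each time. A single library left in a group is assumed to vary like the other group.

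The axonemal minus cytoplasmic difference was 0.22 with the 5 RPM filter, 0.038 with voom, -0.14 to 0.086 with a library left out and, by an alternative added after the data were seen, -0.18 from medians within libraries. The cytoplasmic median was -0.21 to 0.081 with a library left out, and 0.12 for dynein 1 and -0.32 for dynein 2 alone, both also added later. With median-ratio scaling 15 of the 46 genes lay below and 3 above, against 19% and 20.1% of all tested genes. Quantile normalization gave 12 below and 6 above, against 19.3% and 18.7% of all tested genes. Of 533 values of the 41 genes followed, 18 changed sign. No filter, the 5 RPM filter, no variance trend, array weights and the replicate block leave each log2 difference as it was. No sign could change in those settings, so the 533 values overstate how much was tried. Dctn2 was 0.017 with quantile normalization, and Dnahc17 was -0.057 with median-ratio scaling and -0.0075 with voom. The other changes of sign came with a library left out. There the ranges were -0.059 to 0.39 for Dync1i2, -0.32 to 0.23 for Dynll1, -0.18 to 0.054 for Dnahc3, -0.56 to 0.039 for Dync2h1, -0.19 to 0.16 for Dctn2, -0.38 to 0.081 for Dnaic2, -0.27 to 0.15 for Dynlt1b, -0.040 to 0.047 for Dnahc17, -0.15 to 0.37 for 6030429G01Rik and -0.17 to 0.017 for Lrrc50. Dnahc5, Dnahc9, Dnahc11, Dynlrb2 and Dync2li1 stayed lower and Dctn4 higher in each alternative run. The groups of these genes did not overlap, so leaving out a library could not turn their sign. Keeping the sign was not particular to them, as most of the other genes followed kept theirs. Among these was Dynll2, whose groups overlap, at -1.05 to -0.27. By RPM without length Dnahc8 ranked 1 among heavy chains, against 2 per kilobase. The cause of these shifts was not tested.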

Other observations

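Paralogue pairs within the dynein genes differed in how unequal they were, and the pairs below were chosen after their values were seen. Dynlrb2 exceeded Dynlrb1, the other roadblock-type light chain gene, in every library. On RPM per kilobase the ratio was 20.7 and 35.5 in knockout-labelled libraries and 67.8 and 54.5 in heterozygous libraries, with no overlap. Dynlrb1 had 7.33 and 3.73 RPM in knockout-labelled cells against 3.64 and 3.72 RPM in heterozygous cells, or 155 and 42 reads against 21 and 126 reads, so the ratio in knockout-labelled library 1 and the small read number in heterozygous library 1 both weigh on it. Dync1li2 exceeded Dync1li1 per kilobase by 15.3 and 15.5 times in knockout-labelled libraries and 15.3 and 18.1 times in heterozygous libraries. Dynll1 exceeded Dynll2 by 3.59 and 4.21 times in knockout-labelled libraries and 2.85 and 2.26 times in heterozygous libraries, with no overlap. These ratios were not tested.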
